A study of Canis lupus familiaris with 6 samples.

Results

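The genes described here are those of cholesterol synthesis, uptake and transport in CMM10, a cell line from a canine malignant melanoma, grown under hypoxia or under normoxia. They form a list of 34 symbols, and 31 of them matched the name of a gene in the files, out of 29822 genes in all. IDI1, MSMO1 and EBP matched no name and were not analysed here. Polyadenylated RNA was sequenced in 3 libraries of cells under hypoxia and 3 libraries of cells under normoxia, with no other treatment or genotype named. The labels state neither the oxygen level nor the time, and they do not say whether the libraries came from separate cultures, so the p-values below measure only the spread between these libraries, which may be technical. All libraries are of 1 cell line, so the spread holds no difference between tumours.

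Cells make cholesterol from acetyl-CoA through mevalonate, isoprenoids and squalene, and the sterol part of the route consumes molecular oxygen at several steps. Supply is held steady by SREBP-2, a transcription factor kept in the endoplasmic reticulum by its escort SCAP and the INSIG proteins until sterols run low, after which it is cleaved and raises the genes of synthesis and uptake. Excess sterol acts through the LXR receptors, which raise the exporters, and through esterification for storage.

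The 6 libraries held 23196647 to 28804337 reads assigned to genes, of which 93.8% to 94.6% were counted as unique and 23.6% to 25.2% lay in introns. Hypoxia-responsive CA9 was at 409 ± 4.84 CPM (gene reads relative to the scaled library size) under hypoxia and 29.9 ± 1.00 CPM under normoxia (mean ± SD, n = 3 per group). Of the melanocyte markers, MLANA, TYR, TYRP1 and TRPM1 were at a mean below 1 CPM in both conditions, whereas SLC45A2, SOX10, DCT and MITF were expressed. Under hypoxia SLC45A2 (0.48) and SOX10 (0.40) were higher and DCT (-0.23) lower, in log2 change. The 12 melanocyte markers summed to 215 to 224 CPM under normoxia and 249 to 260.5 CPM under hypoxia. The 3 keratinocyte markers measured summed to 961 to 985 CPM and 4117 to 4800 CPM, mostly KRT14. The KRT14 model runs on chromosome 9 from 21156045 to 21265564 with 36 exons. Whether its reads come from KRT14 alone was not tested. KRT14 (2.35) and TP63 (0.46) were higher and KRT10 (-0.45) lower, in log2 change, and TP63, with 97.0% of its reads in introns, was lower from exon reads (-1.37). The 7 fibroblast markers summed to 4229 to 4512 CPM and 5583 to 5761 CPM, mostly COL1A2. The 4 endothelial markers summed to 10.5 to 11.7 CPM and 19.997 to 21.8 CPM. From normoxia to hypoxia, VWF went from 5.23 ± 0.66 to 14.3 ± 1.20 CPM and KDR from 5.33 ± 0.49 to 5.74 ± 0.62 CPM. PECAM1 and CDH5 were at a mean below 1 CPM in both conditions. The 5 leukocyte markers, each at a mean below 1 CPM in both conditions, summed to 1.43 to 1.89 CPM and 1.25 to 2.49 CPM. The sums other than that of the leukocyte markers moved with the condition, and their part in the results below was not tested. In such bulk libraries, fewer cells of a type and less RNA per cell cannot be told apart.

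Cholesterol genes were mostly higher under hypoxia, by modest amounts. Of the 31 genes measured, all of which passed the filter on low counts, 22 rose, 2 fell and 7 did not pass the test (quasi-likelihood test of edgeR, p adjusted by Benjamini-Hochberg and below 0.05). Among all 15397 genes tested, 24.5% rose and 24.4% fell, 49% together. The median log2 fold change of hypoxia over normoxia was 0.34 in the cholesterol genes and 0.00 over all genes tested. Scaling by library size alone moved the median of all genes to -0.07 and that of the cholesterol genes to 0.28. It gave 22 rises and 3 falls among the cholesterol genes, and 38.8% rises among the calls of all genes in place of 50.1%. All 3 hypoxia libraries lay above all 3 normoxia libraries in 23 of the 31 genes, against 27.8% of genes tested, and below them in 2, against 27.5%. The conditions thus did not overlap in 25 of the 31, where they did not in 55.3% of genes tested. Together the 31 genes took 0.510% to 0.515% of gene reads in the normoxia libraries and 0.667% to 0.670% in the hypoxia libraries.

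Most rises were small. Of the 31 genes, 7 rose by a log2 change of at least 0.5, where 11.3% of genes tested did. By as much, 1 of them, ABCA1, fell, where 4.1% of genes tested did. The rises of that size were those of VLDLR, INSIG2, TM7SF2, CYP51A1, HMGCS1, SQLE and FDPS. They belong to different steps of the pathway, and the steps are described in turn.

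**Figure D1:**
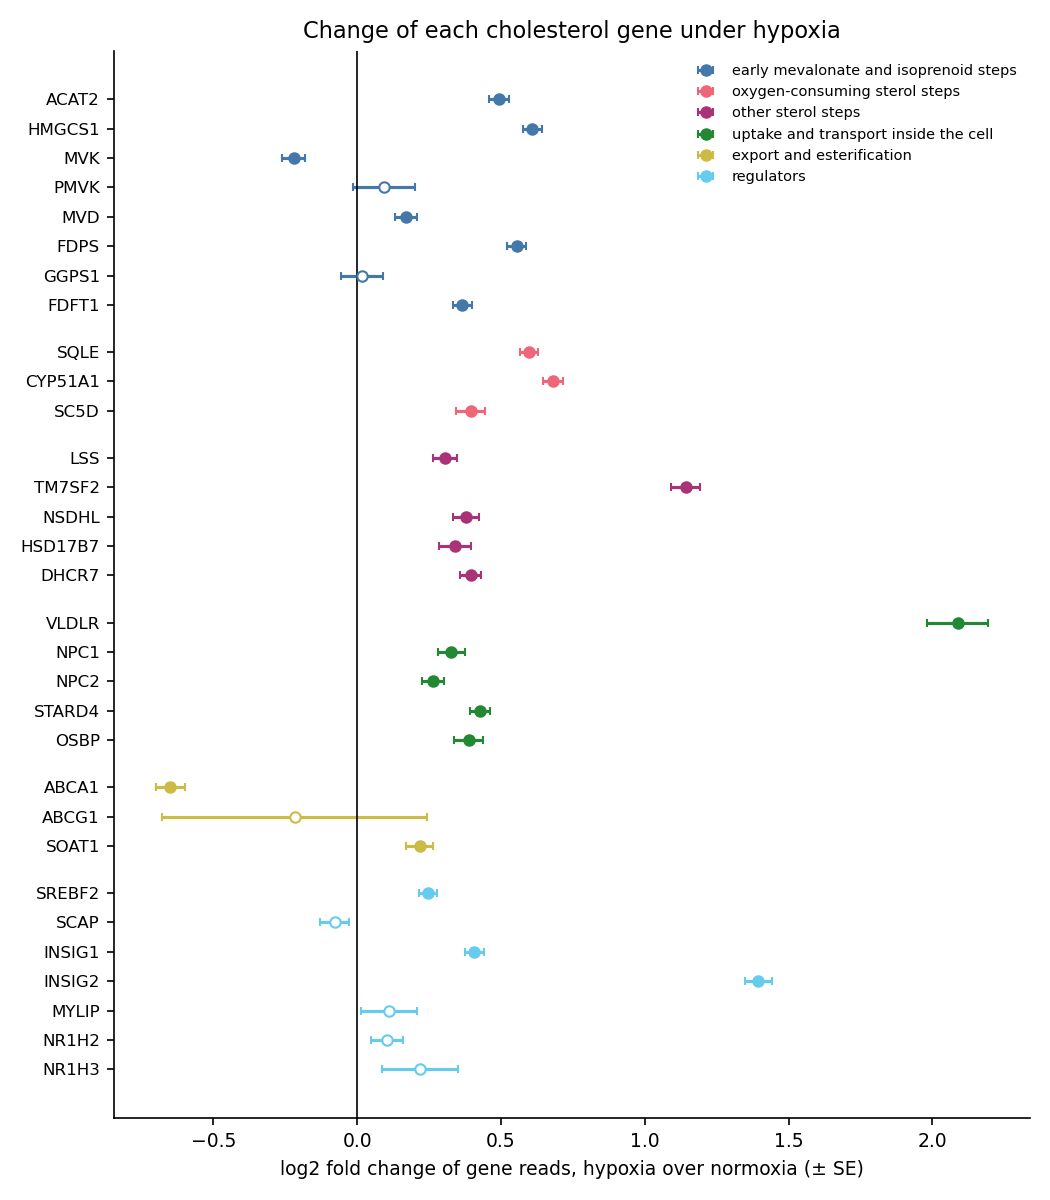
Log2 fold change of gene reads, hypoxia over normoxia, for the 31 measured genes, with 1 row per gene, coloured by step, and bars of ± 1 SE. Filled points passed the test and open points did not. VLDLR (2.09), INSIG2 (1.39) and TM7SF2 (1.14) lie to the right of the other rises, which end at 0.68, and ABCA1 (-0.65) lies farthest to the left.

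The early steps lead from acetyl-CoA to squalene. Of 8 measured genes, 5 rose, 1 fell and 2 did not pass the test, with a median log2 change of 0.27. Over all genes tested, 24.5% rose and 24.4% fell. HMGCS1, the cytosolic HMG-CoA synthase, was at 519, 532 and 539.8 CPM in hypoxia replicates 1, 2 and 3, and at 359, 342 and 342 CPM in normoxia replicates 1, 2 and 3. The lowest hypoxia library was thus well above the highest normoxia library. The difference was 1.53-fold (log2 change 0.61 ± 0.034 SE, edgeR adjusted p = 3.34e-16). Its gene lies on chromosome 4 from 66633572 to 66652196 (CanFam3.1, plus strand).

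FDPS, which makes farnesyl pyrophosphate, the branch point between sterols and other isoprenoids, was at 873, 867 and 857 CPM under hypoxia and at 589, 607 and 573 CPM under normoxia. The conditions did not overlap, and the difference was 1.47-fold (0.55 ± 0.033, edgeR adjusted p = 1.57e-15). Of the FDPS reads, 93.0% were counted as unique. Its model overlaps that of RUSC1 (log2 change 0.16) by 239 bases on the same strand, and whether the other reads come from the overlap or from near-identical copies was not tested. ACAT2, the thiolase that joins acetyl-CoA units, rose by a log2 change of 0.49. FDFT1, squalene synthase, rose by 0.37, and MVD, the mevalonate diphosphate decarboxylase, by 0.17.

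The kinases of the early steps did not follow. MVK, mevalonate kinase, was at 112, 116 and 108 CPM under hypoxia and at 129, 131 and 132 CPM under normoxia. Every hypoxia library was below every normoxia library, and MVK fell by 14.1% (-0.22 ± 0.040, edgeR adjusted p = 2.76e-05). The gene models of MVK and MMAB overlap by 187 bases on opposite strands, and MMAB had a log2 change of -0.25. The kit does not mark strand, so reads in that stretch cannot be assigned. PMVK, the next kinase, was at 12.1 ± 1.43 CPM under hypoxia and 11.3 ± 0.92 CPM under normoxia (n = 3 per group) and did not pass the test (0.09 ± 0.11, edgeR adjusted p = 0.511). GGPS1, which makes the geranylgeranyl group used to prenylate proteins, was at 22.1 ± 0.80 and 21.8 ± 0.12 CPM and did not pass either (0.02 ± 0.073, edgeR adjusted p = 0.859).

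The steps that consume oxygen were measured through 3 genes, and all 3 rose, where 24.5% of all genes tested did. Their median log2 change was 0.60. SQLE, squalene monooxygenase, which adds oxygen to squalene, was at 998, 981 and 997 CPM under hypoxia and at 664, 653 and 649 CPM under normoxia. Its replicates lay close together and the conditions far apart, a difference of 1.51-fold (0.60 ± 0.031, edgeR adjusted p = 8.03e-17). CYP51A1, the cytochrome P450 that removes the C14 methyl group of lanosterol, was at 532, 526 and 562 CPM under hypoxia and at 329, 341 and 339.8 CPM under normoxia. Hypoxia replicate 3 was its highest library, and all hypoxia libraries were above all normoxia libraries. Its hypoxia mean was 60.5% higher (0.68 ± 0.035, edgeR adjusted p = 3.40e-17). SC5D, the sterol C5 desaturase, rose less, from 53.8 ± 1.17 to 70.7 ± 3.60 CPM (0.39 ± 0.051). SQLE lies on chromosome 13 from 22993862 to 23017978 (plus strand) and CYP51A1 on chromosome 14 from 17746656 to 17766658 (minus strand).

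The sterol steps that use no oxygen were measured through 5 genes, and all 5 rose, where 24.5% of all genes tested did. Their median was 0.38. TM7SF2, a sterol C14 reductase that acts on the product of CYP51A1, was at 98.6, 100.9 and 98.5 CPM under hypoxia and at 45.1, 47.1 and 42.7 CPM under normoxia. The 2 conditions were far apart relative to the spread within each, a 2.21-fold difference (1.14 ± 0.049, edgeR adjusted p = 3.97e-19). Its gene lies on chromosome 18 from 52079425 to 52085390 (minus strand), where 1507 bases of its model overlap that of VPS51 on the same strand. VPS51 had a log2 change of -0.09, and 92.1% of the TM7SF2 reads were counted as unique.

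The other 4 genes of this group rose by 0.31 to 0.39. LSS, which closes squalene epoxide into lanosterol, went from 163 ± 2.23 to 201 ± 14.3 CPM. NSDHL and HSD17B7, which work together on the C4 methyl groups, rose by 0.38 and 0.34. DHCR7, which reduces 7-dehydrocholesterol to cholesterol, went from 209 ± 9.17 to 275 ± 4.96 CPM. Across all synthesis steps, 13 of 16 measured genes rose and 1 fell, where 24.5% and 24.4% of all genes tested did. Summed over each group of steps, the deposited TPM values (a level that accounts for exon length) were higher under hypoxia by a ratio of 1.35 for the early steps, 1.53 for the oxygen-consuming steps and 1.31 for the other sterol steps. These ratios describe the groups, and whether they differ from each other was not tested.

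**Figure D2:**
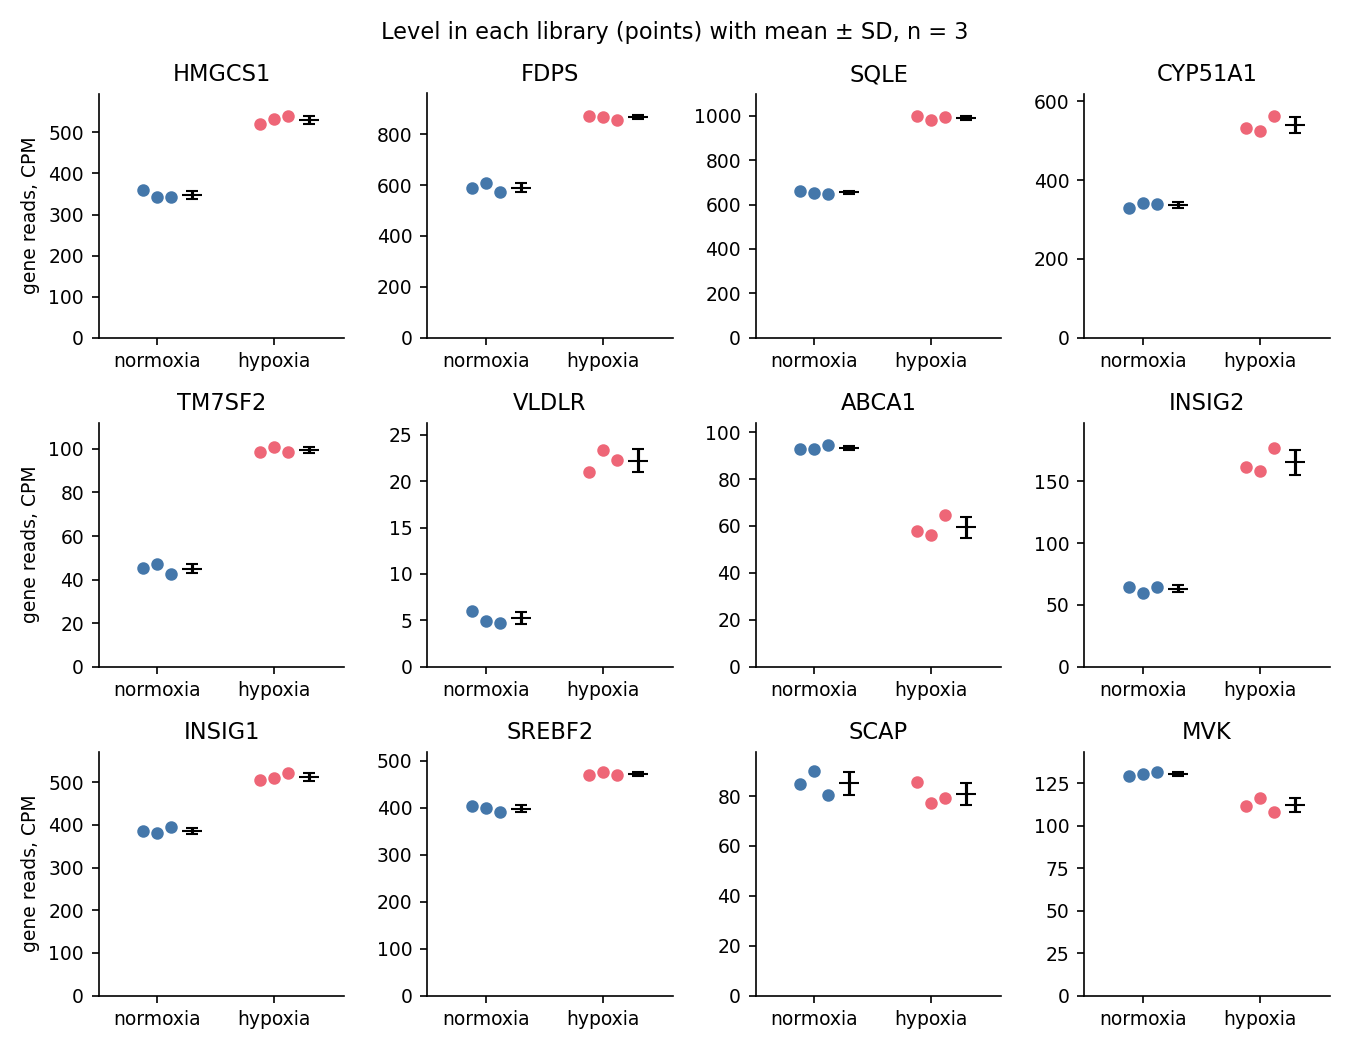
Gene reads in CPM for 12 cholesterol genes, with 1 panel per gene and each vertical axis starting at 0. Points are single libraries, and the bar beside them is the mean ± SD (n = 3 per group). The conditions do not overlap in 11 of the panels; in SCAP they do, and ABCA1 and MVK are the panels in which hypoxia is lower.

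The 5 genes of uptake and of transport inside the cell all rose, where 24.5% of all genes tested did. Their median was 0.39. VLDLR, a receptor for lipoproteins rich in triglyceride and apolipoprotein E, was at 21.0, 23.4 and 22.3 CPM under hypoxia and at 5.96, 4.94 and 4.74 CPM under normoxia. Every hypoxia library was more than 3 times as high as any normoxia library. The difference was 4.25-fold (2.09 ± 0.11, edgeR adjusted p = 3.13e-17) and rested on 113 to 158 reads per normoxia library and 590 to 653 per hypoxia library. VLDLR lies on chromosome 1 from 91241509 to 91272495 (plus strand).

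The remaining 4 changed far less, by 0.26 to 0.43. STARD4, which carries cholesterol between membranes, went from 206 ± 3.64 to 278 ± 4.72 CPM, and 70.2% of its reads were intronic. NPC1 and NPC2, which together release cholesterol from lysosomes, rose by 0.33 and 0.26. Of the NPC2 reads, 86.3% were counted as unique and 50.2% lay in introns. OSBP, which exchanges sterol for a phosphoinositide between the endoplasmic reticulum and the Golgi, rose by 0.39.

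Export and esterification gave 1 fall, 1 rise and 1 gene that did not pass the test. Of all genes tested, 24.5% rose and 24.4% fell. ABCA1, which exports cholesterol to apolipoprotein A-I, was at 58.0, 56.0 and 64.5 CPM under hypoxia and at 92.7, 92.7 and 94.4 CPM under normoxia. All hypoxia libraries lay below all normoxia libraries, and ABCA1 fell by 36.2% (-0.65 ± 0.050, edgeR adjusted p = 1.32e-12). ABCA1 lies on chromosome 11 from 60761655 to 60890496 (minus strand). SOAT1, which esterifies cholesterol for storage in droplets, rose from 60.5 ± 0.67 to 70.3 ± 0.60 CPM (0.22 ± 0.048, edgeR adjusted p = 2.95e-04). ABCG1, the exporter to high-density lipoprotein, was barely detected, with 7 to 22 reads per library and 90.5% of them in introns, and a difference was not detectable at this depth (-0.22 ± 0.46, edgeR adjusted p = 0.733).

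Among the regulators, 3 of 7 rose and 4 did not pass the test, where 24.5% of all genes tested rose and 24.4% fell. INSIG2, which holds SCAP in the endoplasmic reticulum when sterols are plentiful, was at 161, 158 and 177 CPM under hypoxia and at 64.8, 59.7 and 64.4 CPM under normoxia. The conditions did not overlap, and the difference was 2.63-fold (1.39 ± 0.047, edgeR adjusted p = 6.09e-22). Of the INSIG2 reads, 65.6% lay in introns. INSIG1, its paralog and itself a target of SREBP-2, was at 505, 511 and 522 CPM under hypoxia and at 385, 381 and 394 CPM under normoxia, again without overlap. Its difference was smaller, at 1.33-fold (0.41 ± 0.033, edgeR adjusted p = 3.88e-12). INSIG2 lies on chromosome 19 from 31791710 to 31811386 (minus strand) and INSIG1 on chromosome 16 from 18259935 to 18271378 (plus strand).

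Compared per exon length, INSIG1 remained the more abundant of the INSIG transcripts in both conditions. INSIG2 made up 11.3%, 9.55% and 11.8% of their summed TPM in the normoxia libraries and 19.3%, 18.65% and 20.1% in the hypoxia libraries. The share was thus higher in each hypoxia library than in any normoxia library.

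SREBF2, which encodes SREBP-2 and whose model overlaps those of MEI1 and CCDC134 by 476 and 18 bases, was at 470.2, 476 and 468 CPM under hypoxia and at 404, 399 and 389.5 CPM under normoxia. The conditions did not overlap, with a rise of 18.6% (0.25 ± 0.033, edgeR adjusted p = 1.43e-07). SCAP was at 85.6, 77.2 and 79.2 CPM under hypoxia and at 84.9, 89.9 and 80.6 CPM under normoxia. Its conditions overlapped, and it did not pass the test (-0.08 ± 0.049, edgeR adjusted p = 0.195), although scaled by library size alone it was called lower (-0.14, edgeR adjusted p = 0.0143). Of the SCAP reads, 88.1% were counted as unique, and its model overlaps that of PTPN23 on the opposite strand.

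MYLIP, a ubiquitin ligase that marks lipoprotein receptors for degradation, was at 13.6 ± 0.33 and 12.6 ± 0.99 CPM under hypoxia and normoxia (0.11 ± 0.097, edgeR adjusted p = 0.367). The LXR genes NR1H2 (0.10 ± 0.055, edgeR adjusted p = 0.118) and NR1H3 (0.22 ± 0.13, edgeR adjusted p = 0.182) did not pass the test. NR1H2 passed without normoxia replicate 2 (0.15, edgeR adjusted p = 0.0365). The model of NR1H2 lies within that of NAPSA on the opposite strand, and NAPSA had a log2 change of 1.45, so the NR1H2 value may hold NAPSA reads. NR1H3 was the lower of the LXR genes, at 4.84 TPM under hypoxia against 62.8 TPM for NR1H2.

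Levels between genes can be compared only per exon length, for which the deposited TPM was used. Under normoxia the order ran from FDPS (654 ± 9.74 TPM), SQLE (618 ± 11.3 TPM) and CYP51A1 (443 ± 13.6 TPM) down to NR1H3 (4.89 ± 0.42 TPM), VLDLR (3.36 ± 0.46 TPM) and ABCG1, at most 0.081 TPM. The median gene was at 59.2 TPM. Of the 30 pairs of neighbours in this order, 10 overlapped in their normoxia libraries, among them HMGCS1 with ACAT2, MVD with LSS, and TM7SF2 with INSIG2. The first 9 places, from FDPS to SREBF2, were the same under hypoxia. INSIG2 moved from place 24 to place 15, TM7SF2 from 23 to 17 and VLDLR from 30 to 27.

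**Figure D3:**
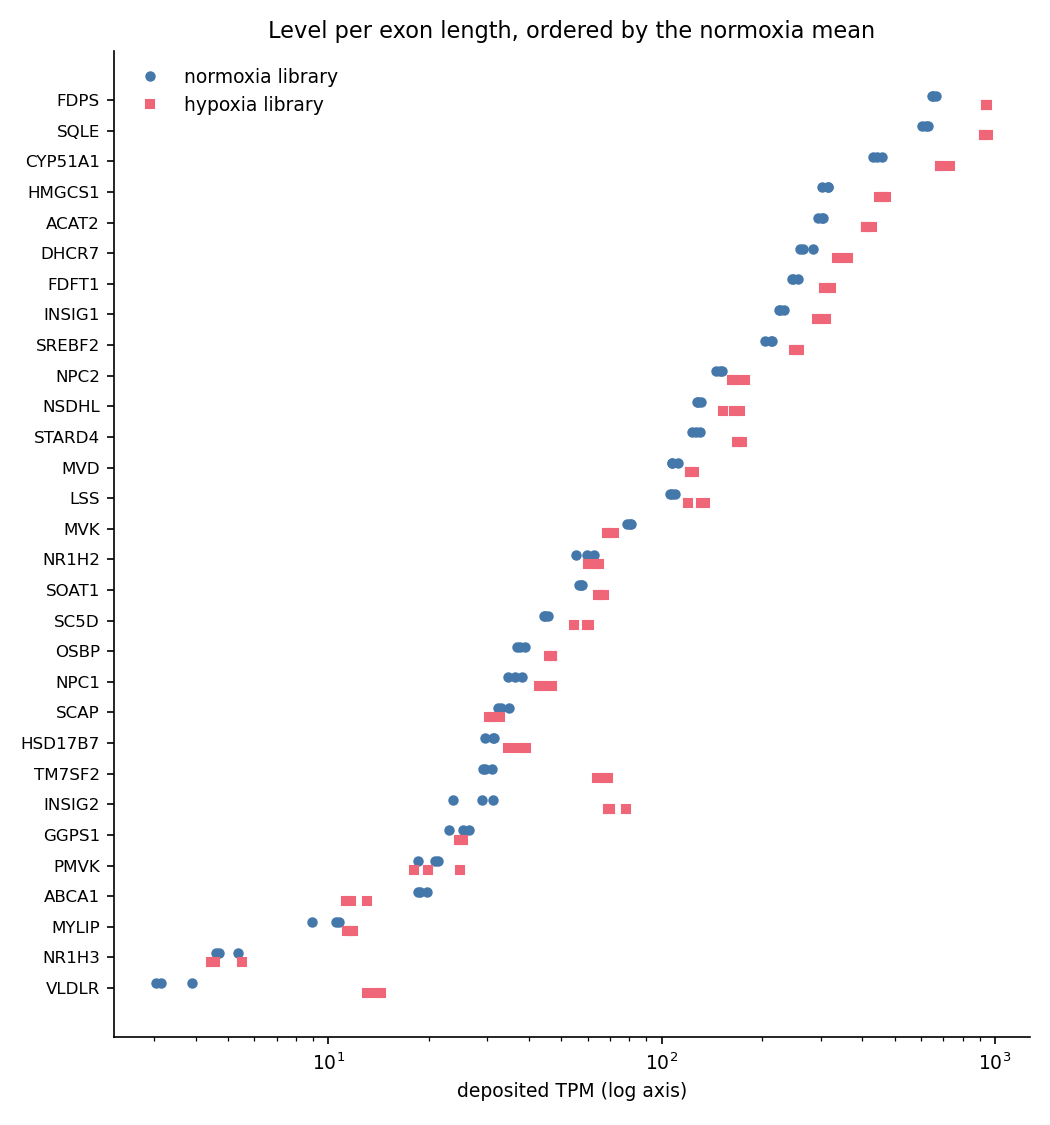
Deposited TPM of 30 cholesterol genes on a log axis, ordered by their normoxia mean, with circles for normoxia libraries and squares for hypoxia libraries. ABCG1, at or near 0, is left out. The abundant synthesis genes at the top shift to the right by a similar small distance, while TM7SF2, INSIG2 and VLDLR shift by more and ABCA1 shifts to the left.

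Exon reads stand mainly for mature mRNA and intron reads mainly for unspliced RNA, and both were tested separately. From exon reads, 22 of 30 genes tested rose and 2 fell, where 24.4% and 23.8% of all genes did, 48.2% together. From intron reads, 20 of 31 rose and 2 fell, where 18.7% and 15.7% of all genes did, 34.4% together. Of the 30 genes tested in both, 19 rose in both, against 14.8% of all genes tested in both, 2 fell in both, against 12.6%, and 0 were called in opposite directions.

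The largest changes were of similar size in both kinds of read. INSIG2 changed by 1.41 ± 0.074 in exon reads and 1.40 ± 0.056 in intron reads, TM7SF2 by 1.20 ± 0.053 and 1.01 ± 0.092, and ABCA1 by -0.63 ± 0.051 and -0.81 ± 0.17. VLDLR changed by 2.07 ± 0.11 and 2.42 ± 0.36, its intron value resting on few reads. MVD, SOAT1 and SREBF2 were called higher in exon reads and not in intron reads. For SREBF2 the values were 0.31 ± 0.033 and 0.03 ± 0.054 (edgeR adjusted p = 5.91e-10 and 0.667). NR1H3 was the reverse case, with 0.01 ± 0.17 in exon reads and 0.61 ± 0.22 in intron reads (edgeR adjusted p = 0.954 and 0.0248).

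A difference between the exon and the intron change needs its own test. In the limma test of the exon to intron ratio, 0 of the 29 genes with enough reads passed after Benjamini-Hochberg adjustment over 9925 genes, and 111 of those genes (1.12%) did, 0.463% towards exon reads and 0.655% towards intron reads. At an unadjusted p below 0.05 there were 3, SREBF2 (0.25 ± 0.097, adjusted p = 0.253), MYLIP (0.34 ± 0.11, adjusted p = 0.199) and NR1H3 (-0.61 ± 0.14, adjusted p = 0.0931). The standard errors ran from 0.079 to 0.14, and in simulated data for this ratio (9879 genes run) the test recovered 6% of changes of 1.25-fold and 68% of changes of 1.5-fold. Small differences between exon and intron changes were thus not detectable at this depth.

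**Figure D4:**
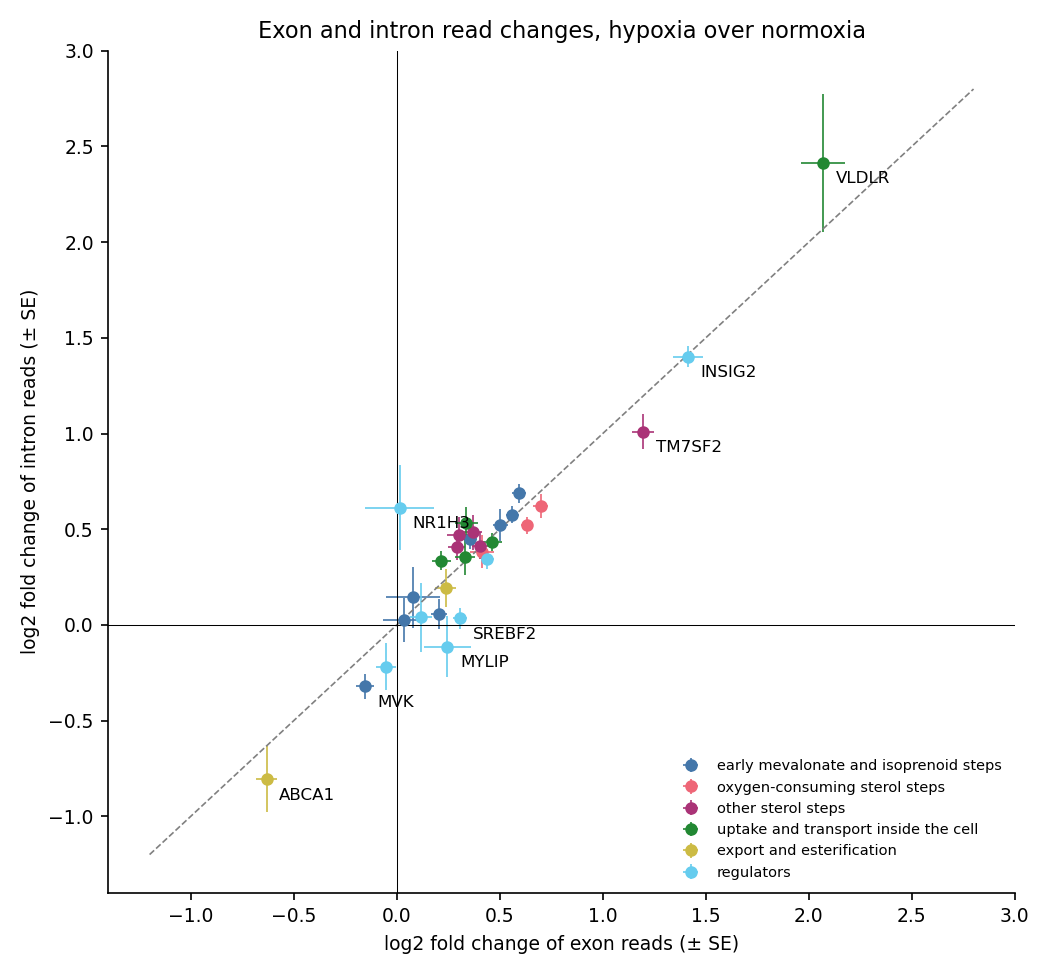
Log2 fold change of exon reads (horizontal) and of intron reads (vertical) for the 30 genes tested in both, with bars of ± 1 SE and colours by step. The dashed line marks equal change. INSIG2 (1.41 and 1.40) lies on it, and most other genes lie near it. NR1H3 and VLDLR lie above it, and MYLIP and SREBF2 lie below it.

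Further genes of sterol and isoprenoid metabolism, listed by function, moved in both directions. Of 62 listed genes 54 were tested, of which 18 rose and 16 fell, and the median log2 change was 0.02. Over all genes 24.5% rose and 24.4% fell, and with 1 library left out the list gave 16 to 19 rises and 14 falls. The genes that supply electrons to the oxygen-consuming enzymes, or that act in further sterol steps, gave 7 rises and 2 falls among 10. Among the rises, ERG28 (0.18 ± 0.065) had overlapping conditions and lost its call when scaled by library size alone (edgeR adjusted p = 0.157). ERG28 also lost it without hypoxia replicate 2 or normoxia replicate 1 or 3 (edgeR adjusted p from 0.0973 to 0.278). Its model lies within that of FLVCR2 on the opposite strand, and 63.2% of its reads were counted as unique. The cytochrome b5 gene CYB5A, an electron donor of sterol desaturation, rose from 45.2 ± 1.40 to 85.4 ± 2.39 CPM (0.92 ± 0.050), and its reductase CYB5R3 by 0.31. The heme-binding PGRMC2 rose by 0.78 and PGRMC1 by 0.35. FAXDC2, a member of the fatty acid hydroxylase family, rose from 16.1 ± 0.70 to 31.3 ± 1.12 CPM (0.96 ± 0.073), and 69.8% of its reads were intronic.

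The 2 falls in that group were POR, the reductase that feeds CYP51A1 and SQLE (-0.18 ± 0.043), and LBR, a second sterol C14 reductase besides TM7SF2, which also anchors chromatin at the nuclear envelope. LBR went from 146 ± 1.87 to 121 ± 2.76 CPM (-0.27 ± 0.039). TM7SF2 made up 22.9%, 24.2% and 23.0% of the summed TPM of TM7SF2 and LBR in the normoxia libraries and 43.9%, 46.4% and 45.5% in the hypoxia libraries, without overlap.

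The list of isoprenoid branches, which leave the pathway around farnesyl pyrophosphate, gave 0 rises and 6 falls among 7 genes, with a median of -0.26, where 24.4% of all genes fell. GGPS1, which also serves these branches and did not pass the test, is counted with the early steps above. DOLK, which phosphorylates dolichol, fell from 19.3 ± 1.19 to 12.1 ± 0.20 CPM (-0.67 ± 0.088). DHDDS and NUS1, the subunits that make the dolichol chain, fell by 0.26 and 0.21, and NUS1 did not pass without hypoxia replicate 3 (-0.17, edgeR adjusted p = 0.0567) or without normoxia replicate 3 (-0.17, edgeR adjusted p = 0.0694). PDSS1 and PDSS2, which make the side chain of coenzyme Q, fell by 0.27 and 0.29, and PDSS2 did not pass from exon reads only (-0.14, edgeR adjusted p = 0.363). FNTA, the shared subunit of protein prenyltransferases, fell by 0.25. COQ2 did not pass the test (-0.05 ± 0.050).

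Among genes of SREBP processing and sterol-regulated protein turnover, 2 of 10 rose and 1 fell, where 24.5% and 24.4% of all genes did. RNF145, a ubiquitin ligase of the endoplasmic reticulum, rose by 0.39 ± 0.034. The fall was that of UBE2G2, a ubiquitin-conjugating enzyme (-0.13 ± 0.049). It did not pass without hypoxia replicate 1 or 3 or without normoxia replicate 1 or 2 (edgeR adjusted p from 0.0777 to 0.119), and from exon reads only its sign was reversed (0.027). The proteases that cleave SREBP, MBTPS1 (0.01 ± 0.039) and MBTPS2 (0.01 ± 0.060), and SREBF1 (0.06 ± 0.034), which encodes the relative of SREBP-2 that serves mainly fatty acid synthesis, did not pass the test.

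Of 5 genes of lipoprotein receptors and their control, 2 rose and 1 fell, where 24.5% and 24.4% of all genes did. LRP1, a scavenging receptor for many ligands, rose from 87.6 ± 3.80 to 128 ± 6.16 CPM (0.55 ± 0.045), and SCARB1, which takes up cholesteryl ester from high-density lipoprotein, rose by 0.27. LRP8, a close relative of VLDLR, fell from 149.97 ± 4.14 to 114 ± 1.82 CPM (-0.40 ± 0.039). VLDLR and LRP8 thus moved in opposite directions.

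In sterol transport and hydrolysis, 4 of 15 genes tested rose and 4 fell, shares close to those over all genes (24.5% and 24.4%). GRAMD1B, which carries cholesterol from the plasma membrane to the endoplasmic reticulum, rose from 0.68 ± 0.13 to 1.73 ± 0.55 CPM (1.34 ± 0.34). This rested on 14 to 21 reads per normoxia library and 38 to 66 per hypoxia library, and GRAMD1B was above 1 CPM in the hypoxia libraries only. NCEH1, a hydrolase of cholesteryl esters, went from 8.92 ± 0.64 to 6.27 ± 0.62 CPM (-0.51 ± 0.13), but did not pass from exon reads only (-0.30, edgeR adjusted p = 0.136). OSBPL10 fell by 0.40. The other rises were those of OSBPL1A (0.24), OSBPL5 (0.29) and TMEM97 (0.17), and the other falls those of OSBPL11 (-0.13) and CAV1 (-0.09). TMEM97 and CAV1 each lost their call from exon reads only (edgeR adjusted p = 0.0627 and 0.0576), and OSBPL11 without hypoxia replicate 2 or normoxia replicate 3 (edgeR adjusted p = 0.0929 and 0.0535). TMEM97 also lost it when scaled by library size alone (edgeR adjusted p = 0.139) and without hypoxia replicate 2 or normoxia replicate 2 or 3 (edgeR adjusted p from 0.0644 to 0.0680), and CAV1 with a mean of at least 1 CPM (edgeR adjusted p = 0.0559) and without hypoxia replicate 1 or 2 or normoxia replicate 1 (edgeR adjusted p from 0.101 to 0.169). In the group of oxysterols, esterification and export, 3 of 7 rose and 2 fell, where 24.5% and 24.4% of all genes did. CYP46A1, which converts cholesterol to 24-hydroxycholesterol, rose from 6.64 ± 0.81 to 14.9 ± 0.81 CPM (1.16 ± 0.11), and 71.0% of its reads were intronic. CYP27A1, another sterol hydroxylase, rose by 0.26, and RXRA, a partner of the LXR receptors, fell by 0.21. CYP7B1 (-0.24) did not pass without normoxia replicate 2 (edgeR adjusted p = 0.0503), and RXRB (0.19) did not pass with DESeq2 (adjusted p = 0.0784), from exon reads only (0.453), when scaled by library size alone (0.193), without the low count filter (0.0713), or without hypoxia replicate 1 or 2 or normoxia replicate 1 or 3 (edgeR adjusted p from 0.0954 to 0.138).

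**Figure D5:**
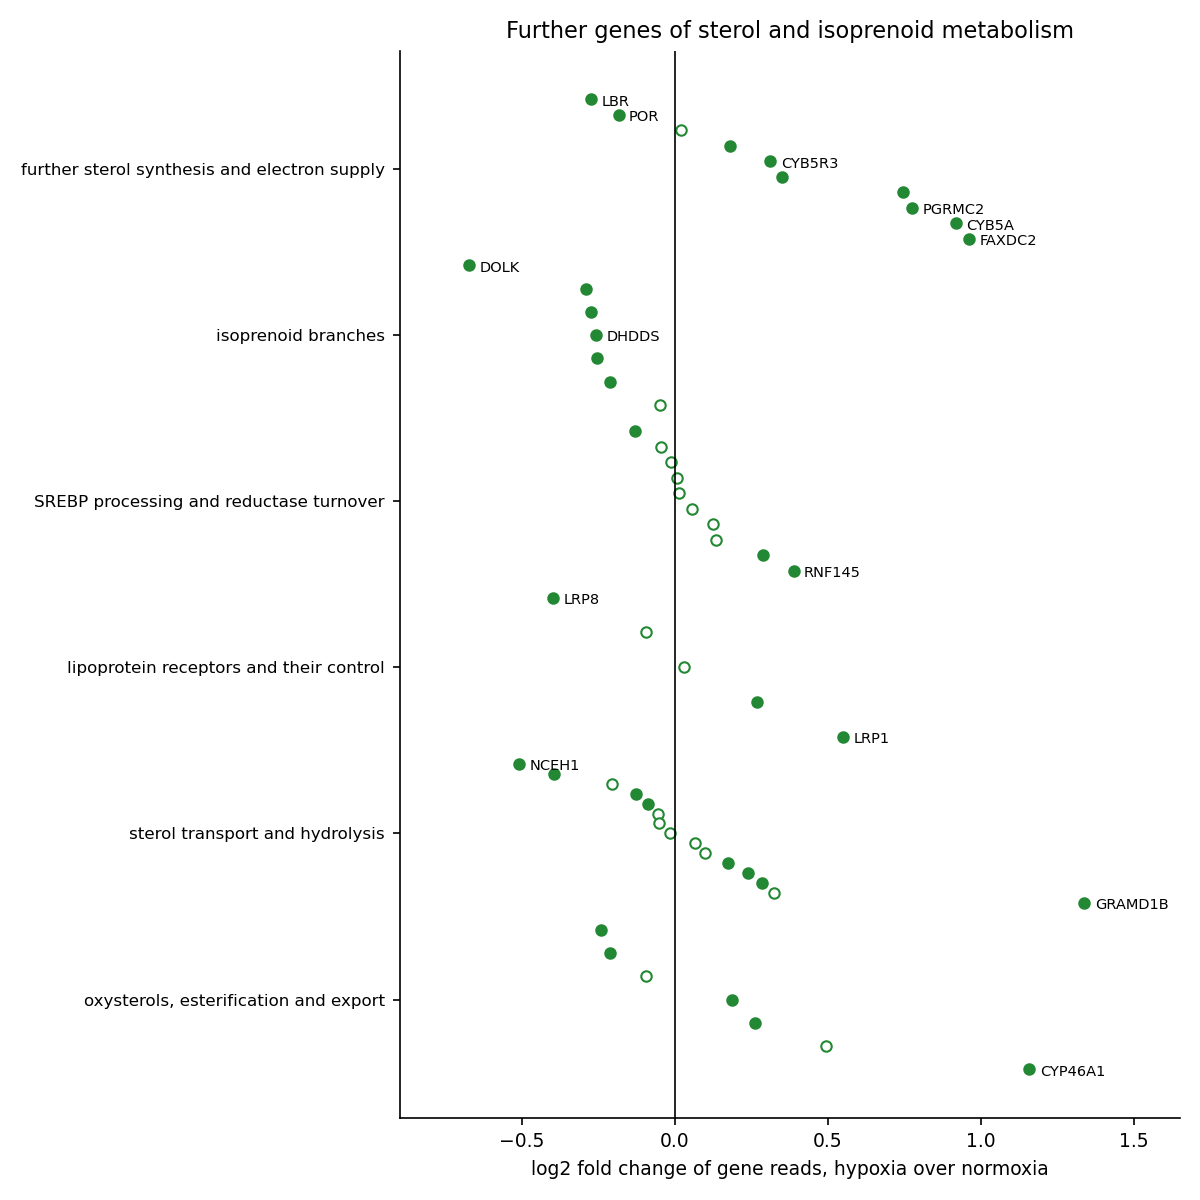
Log2 fold change of gene reads for the 54 tested genes of the wider list, with 1 point per gene, grouped by function and sorted within each group. Filled points passed the test and open points did not, and some of the genes named in the text are labelled. The isoprenoid branches lie to the left of 0 throughout, whereas the other groups hold rises and falls.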

How the data were processed

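Per the labels' protocols, polyadenylated RNA of CMM10 cells was made into libraries with a kit that does not mark strand and was sequenced as read pairs. The genome build, per the submitters' processing notes, was CanFam3.1; the sources used here name no aligner and no counting tool. The deposited counts are, per the file headers, total and unique reads per gene, exon and intron. The deposited TPM values served for levels between genes, and the deposited RPKM values were not used.

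Genes were kept by filterByExpr, scaled by TMM and compared by edgeR's quasi-likelihood test (robust, no covariates) over 15397 genes, with Benjamini-Hochberg adjustment; a gene was called below 0.05. The common biological coefficient of variation was 4.76%. Changes are log2 fold changes ± SE, levels mean CPM ± SD of 3 libraries per group on TMM-scaled library sizes. Exon and intron reads were fitted in the same way. The exon to intron ratio, log2 of reads plus 0.5, was centred per library and tested with limma for genes with a mean of at least 50 reads of each kind.

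The members and lists were chosen with earlier results of these data known. By the rule for named genes, values in every library are given for called members with a log2 change of at least 0.5, the largest change of each step, and SREBF2, SCAP, INSIG1 and INSIG2. From the wider list the 4 largest rises and 4 largest falls with a mean of at least 1 CPM over all libraries are named; its other named genes, and the values of MVK in every library, were chosen after their values were seen. In that list 56 of 62 symbols matched, and 2 were below the filter. Some genes of that list enter its counts and are not reported here by name.

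On simulated counts (15237 genes run for hypoxia against normoxia) the test recovered 78% of 1.25-fold and 90.0% of 1.5-fold changes, and 6.12% of its calls were unchanged genes. The simulation used 1 fixed dispersion and changed 50 genes at each fold, drawn from genes above a minimum of reads. In the data 49% of genes were called, so these rates need not hold for them or for genes with few reads. Replicates of a condition differed by more than sampling noise (chi-square per degree of freedom 4.22 to 13.7). Alternatives were DESeq2, other scaling and filters, exon or unique reads only, a replicate block, and each library left out. Fits ran in edgeR 4.0.16, DESeq2 1.42.0 and limma 3.58.1 with data.table (1.17.8) under R 4.3.3, and figures were drawn with matplotlib 3.10.9 in Python 3.11.15.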

Additional observations from a re-analysis of the deposited data

How the results depend on the processing

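The counts of cholesterol genes were 22 higher and 2 lower with DESeq2, without a low count filter, with a mean of at least 1 CPM, from exon reads only, from unique reads only and with a replicate block; leaving out 1 library gave 22 to 23 higher and 2 lower. No named cholesterol gene that was called lost its call or changed direction under any of these. From intron reads, leaving out 1 library gave 18 to 20 higher. Libraries with equal numbers deviated from their group means with correlations of -0.085 to 0.026 across genes, other pairs with -0.088 to 0.13, so the numbers were not taken to pair them. Over all genes, the exon to intron ratio gave 46 higher and 65 lower; this became 93 and 125 with at least 100 reads of each kind, 48 and 45 without centring, 6 and 7 with the replicate block, and 6 to 13 and 9 to 21 with any 1 library left out, while the cholesterol genes gave 0 under each. In the wider list, UBE2G2 (-0.13) changed sign from exon reads only (0.027, edgeR adjusted p = 0.785); the cause was not tested. Depth limits ABCG1 and the intron values of VLDLR.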

Other observations

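The lysosomal acid lipase gene LIPA, which frees cholesterol from lipoproteins taken up by the cell, was close to 0, at a mean of 0.025 CPM under hypoxia and 0.014 CPM under normoxia, and was not tested. SOAT2, the second enzyme of cholesterol esterification, was below the filter for gene reads, at 0.387 CPM under hypoxia and 0.105 CPM under normoxia. The SOAT2 model lies within that of IGFBP6 on the same strand (9263 bases), and whether its reads come from IGFBP6 was not tested. From exon reads, with 2 to 4 reads per normoxia library and 10 to 11 per hypoxia library, SOAT2 was called higher under hypoxia (log2 change 1.87 ± 0.65 SE, edgeR adjusted p = 0.0171). SOAT1 was at 65.8 TPM and 57.2 TPM. These genes were chosen after their values were seen.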
